A study of Homo sapiens with 6 samples.

Results

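The TRIM family of ubiquitin ligases was followed by RNA-seq in SW620, an established cell line from a human colorectal cancer. Members were the rows of the deposited count table whose symbol is TRIM followed by a number, with antisense, readthrough and pseudogene symbols left out, which gave 54 of the 20729 genes listed. The siOSBPL3 group received an siRNA against OSBPL3, a gene for an oxysterol-binding-protein-related protein that moves lipids at membrane contacts, and the siNC group received a control siRNA. Each group held 3 libraries. The labels name a single cell line and give neither the dose and duration of the siRNA nor separate cultures, so the p-values speak only for differences among these 6 libraries, part of which may be technical.

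TRIM proteins share a tripartite motif of a RING finger, which binds a ubiquitin-loaded E2 enzyme, then B-box zinc fingers and a coiled coil. The domain that follows gives each class its targets, such as a SPRY domain, NHL repeats, a COS box that binds microtubules, or a PHD finger with a bromodomain that reads chromatin. Many members with a SPRY domain restrict viruses or tune the signalling that follows viral RNA, and several are induced by interferon through promoter elements of the type called ISRE.

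The ISRE-type motif, read as GAAA, any 2 bases and GAAA again, was searched on both strands of RefSeq promoters on GRCh38.p14, because interferon acts on its target genes through such elements. Each promoter ran from 250 bases before to 50 bases after the start listed for it. A promoter was listed for 42 of the 54 members, and 8 of these 42 (19.0%) held a match, against 996 of 27305 promoters of that length over all genes (3.65%). The capitals below mark the matched letters. The shorter letters TTCNNNGAA, of the GAS type, were found in 5 of the 42 (11.9%) and in 7.88% of all promoters. The 30 bases around each ISRE-type match are given 5′ to 3′ on the strand of the gene, and in TRIM21 and TRIM26 a pair of matches overlap.
TRIM21, chr11:4393663-4393692, minus strand: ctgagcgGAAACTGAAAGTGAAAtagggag
TRIM26, chr6:30213578-30213607, minus strand: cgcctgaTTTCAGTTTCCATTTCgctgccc
TRIM5, chr11:5685082-5685111, minus strand: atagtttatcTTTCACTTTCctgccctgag
TRIM14, chr9:98119229-98119258, minus strand: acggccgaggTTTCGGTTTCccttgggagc
TRIM69, chr15:44736456-44736485, plus strand: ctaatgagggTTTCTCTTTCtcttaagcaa
TRIM16, chr17:15683012-15683041, minus strand: acagaggtaaGAAATAGAAAtaaagggtcc
TRIM44, chr11:35662730-35662759, plus strand: tcctgacgggGAAAGGGAAAgtggaaccgg
TRIM2, chr4:153151936-153151965, plus strand: aataaatagaGAAAAGGAAAtaagccgaag
Of these 8 genes the first 6 listed were higher in siOSBPL3 and TRIM44 and TRIM2 were lower, with a median log2 fold change of 1.01. Over all genes tested 40.4% were higher and 39.8% lower. The 30 tested members whose promoter held no match had 13 higher, 10 lower and 7 not called, with a median of 0.10. Among the interferon-inducible or antiviral members described below, TRIM21, TRIM26, TRIM5, TRIM14 and TRIM69 had a match. TRIM6, TRIM25, TRIM38 and TRIM56 had a promoter without a match. That list was drawn up with earlier results of these libraries known. The higher calls at matched promoters are mostly its members, so they are not separate evidence. Of the matched genes off the list, TRIM16 was higher and TRIM44 and TRIM2 were lower. No promoter was listed for TRIM22. A match is a description of the letters and not evidence of binding. The promoter listed for TRIM16 lies inside the gene span given further on, so its match is not next to the outer end of that gene.

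The siOSBPL3 libraries held 34569895 to 39701340 counts and the siNC libraries 30040020 to 33667128. OSBPL3 itself stood at 40.2, 12.2 and 15.1 CPM (read counts relative to the TMM-scaled library size) in siOSBPL3 replicates 1 to 3, against 179, 174 and 175 CPM in siNC. Its log2 fold change was -2.97 ± 0.48 (SE; adjusted p = 0.0016, edgeR quasi-likelihood test). Over the whole table, 12437 of the 15506 genes with enough counts (80.2%) were called at an adjusted p of 0.05. Of 13 colorectal epithelial markers, 5 were higher, 4 lower, 2 were not called and 2 (CDX1 and KRT20) were too low to test, with summed levels of 4836 to 5890 CPM in siOSBPL3 and 6932 to 7020 CPM in siNC. CDX2, the intestinal transcription factor, averaged 63.5 CPM in siOSBPL3 and 1.15 CPM in siNC, and VIL1, the brush border protein villin, 62.5 and 482 CPM. The 8 leukocyte markers listed summed to 13.2 to 20.8 CPM in siOSBPL3 and 20.4 to 22.9 CPM in siNC, with PTPRC at 0.110 and 0.0831 CPM. Of the 6 of them tested, 4 were higher, 2 lower and the median log2 fold change was 3.11: CD8A averaged 4.54 CPM in siOSBPL3 and 0.649 CPM in siNC, CD14 3.06 and 0.278 CPM, ITGAM 2.05 and 0.0213 CPM, and HLA-DRA 0.591 and 0.0101 CPM. CD68, which makes up most of the siNC sum, was lower at 5.87 CPM in siOSBPL3 and 19.0 CPM in siNC. The 8 fibroblast and endothelial markers listed summed to 7.56 to 13.2 CPM in siOSBPL3 and 73.6 to 78.1 CPM in siNC, where LUM made up 60.3 CPM and had no count in siOSBPL3. The part of any difference in cell identity or cell make-up in the results on TRIM genes was not tested.

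Most tested TRIM genes differed between the groups, and at about the rate of genes in general. Of the 54 members 49 had enough counts to be tested, and 41 of these 49 (83.7%) were called at an adjusted p of 0.05, beside 80.2% of all genes tested. Of the 49, 26 (53.1%) were higher in siOSBPL3, beside 40.4% of all genes, and 15 (30.6%) lower, beside 39.8%. At least 2-fold and called were 23 (46.9%), beside 48.9% of all genes. The 14 of these that were higher (28.6%) stand beside 24.8% of all genes, and the 9 that were lower (18.4%) beside 24.1%. In 44 of the 49 (89.8%) the CPM values of the groups did not overlap, beside 83.0% of all genes. The median log2 fold change was 0.33 over the 49 members and 0.00 over all genes tested. The summed level of all 54 members was 2086 to 2208 CPM in siOSBPL3 and 1570 to 1589 CPM in siNC.

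**Figure D1:**
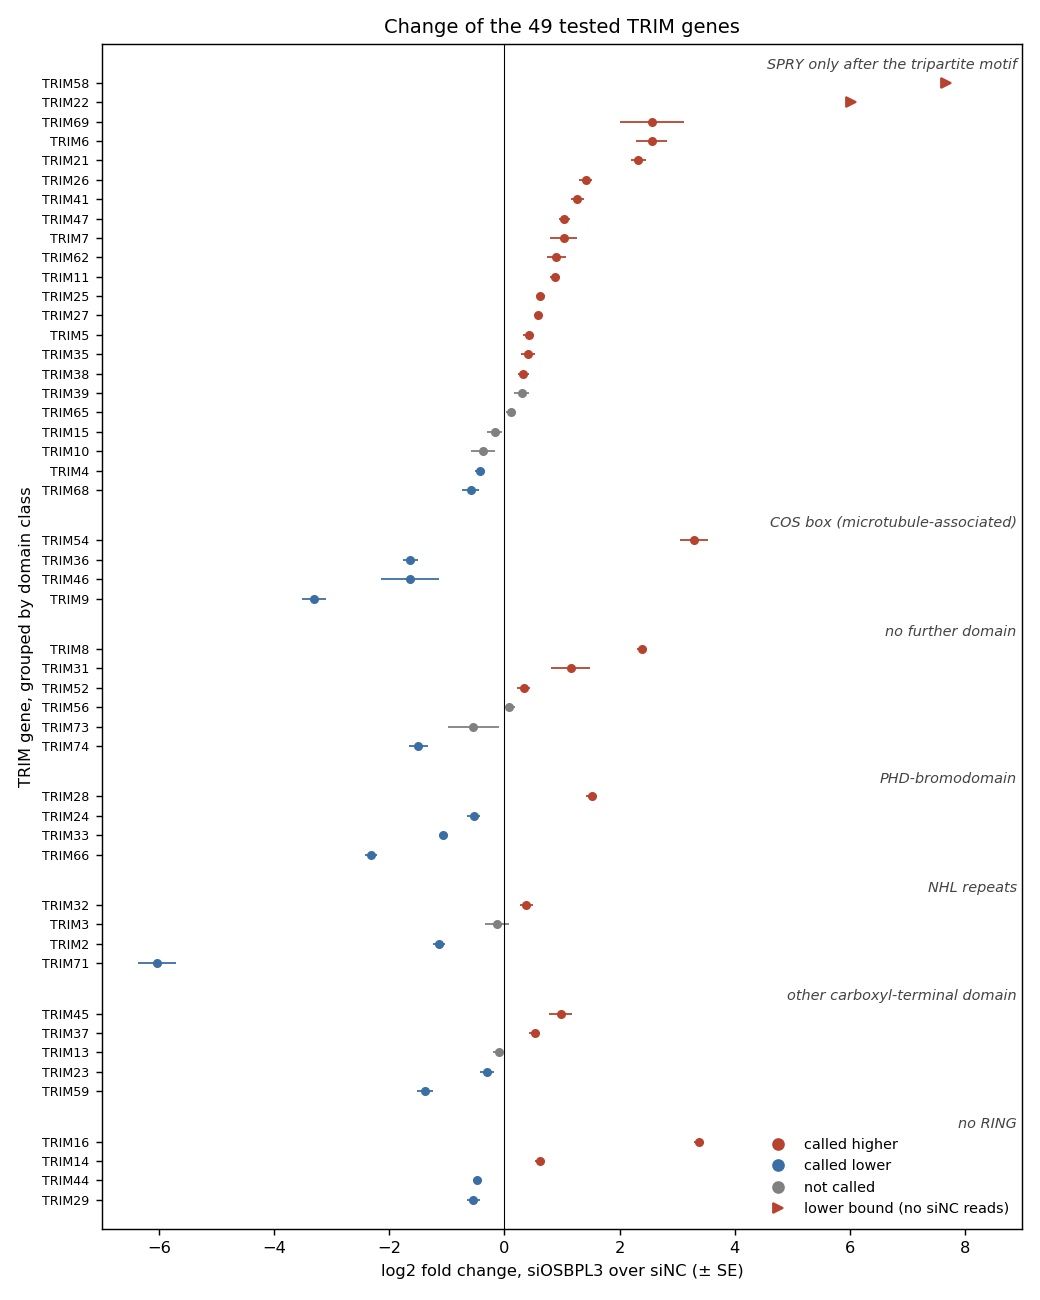
Log2 fold change (siOSBPL3 over siNC, horizontal axis) of the 49 tested TRIM genes, grouped by the domain after the tripartite motif, with bars for the SE of the fit and arrowheads for lower bounds where siNC had no reads. In the class with a SPRY domain alone 16 of 22 genes lay right of 0 and were called. In the COS box class 3 of 4 were called lower. Of all genes tested 40.4% were called higher and 39.8% lower.

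Members on the interferon-inducible or antiviral list were mostly higher in siOSBPL3. Of 10 members of that list, 9 were higher and none lower, beside 40.4% and 39.8% of all genes tested, and TRIM56 was not called. The list had a median log2 fold change of 1.02, which did not change with TRIM22 at its lower bound, beside 0.00 over all genes tested. It was drawn up with earlier results of these libraries known, so its direction is not independent evidence. The list is a selection and not a census of TRIM genes with such roles. Among those left out are TRIM4, another RIG-I ligase, which was lower, and TRIM31, a ligase of MAVS, which was higher. Of the 15 lower members of the family none is on the list, so its share of rises depends on which members were chosen.

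TRIM22, an interferon-induced restriction factor for several viruses (chromosome 11, 5689790 to 5710863, GRCh38.p14), had 1.94, 1.69 and 2.45 CPM in the siOSBPL3 libraries and no count in any siNC library. Against a floor of 3 counts over the siNC group, which is 0.0313 CPM, it was at least 65.1-fold higher in siOSBPL3 (adjusted p = 3.1e-06, edgeR). Its level in siOSBPL3 was low, and the bound takes in counting error alone. TRIM21, the cytosolic antibody receptor that targets coated virions (chromosome 11, 4384897 to 4393702), had 34.9, 45.9 and 43.9 CPM in siOSBPL3 and 7.49, 8.82 and 8.53 CPM in siNC. All its siOSBPL3 libraries stood above all its siNC libraries, with a log2 fold change of 2.33 ± 0.13 (adjusted p = 8.5e-09, edgeR).

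TRIM6, which makes free ubiquitin chains that activate the kinase IKBKE, had 8.72, 5.85 and 5.94 CPM in siOSBPL3, against 0.943, 1.05 and 1.48 CPM in siNC. It was higher by 2.56 ± 0.27 on the log2 scale (adjusted p = 2.4e-06, edgeR). GENCODE 29 places 32.6% of the 75-base stretches of its longest transcript also in a readthrough with TRIM34, so that reads could be split between them. TRIM69, an interferon-inducible member, was scarce in both groups, with 0.775, 1.12 and 1.34 CPM in siOSBPL3 and 0.183, 0.0602 and 0.303 CPM in siNC. The groups did not overlap, and its log2 fold change was 2.57 ± 0.56 (adjusted p = 0.0011).

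TRIM26, a gene of the major histocompatibility region whose product acts on IRF3, had 82.2, 102 and 75.9 CPM in siOSBPL3 and 34.1, 31.7 and 31.9 CPM in siNC. Its siOSBPL3 libraries spread more than its siNC libraries but lay wholly above them (log2 fold change 1.41 ± 0.11, adjusted p = 1.5e-07). TRIM25, the ligase that ubiquitinates the viral RNA sensor RIG-I, had 143, 142 and 139 CPM in siOSBPL3, against 89.7, 95.6 and 89.8 CPM in siNC. It was 1.54-fold higher (log2 fold change 0.62 ± 0.08, adjusted p = 9.5e-06), and the replicates of each group lay close together.

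TRIM14, a mitochondrial adaptor of the same signalling, had 66.2, 77.6 and 72.0 CPM in siOSBPL3 and 44.3, 49.2 and 47.8 CPM in siNC (log2 fold change 0.61 ± 0.09, adjusted p = 4.1e-05). TRIM5, whose protein recognises retroviral capsids, had 30.1, 33.6 and 33.7 CPM in siOSBPL3, against 25.0, 24.6 and 23.2 CPM in siNC (0.42 ± 0.10, adjusted p = 0.0015). TRIM38, a regulator of innate signalling, had 37.3, 33.5 and 35.8 CPM in siOSBPL3 and 27.8, 28.5 and 28.6 CPM in siNC (0.33 ± 0.09, adjusted p = 0.0052). The groups of these 3 genes did not overlap, but each change was less than 2-fold as counted. With a correction of each library for GC content and transcript length, described further on, TRIM38 stood at 1.25 on the log2 scale (adjusted p = 3.3e-07). TRIM56, an antiviral member, had 111, 98.4 and 88.1 CPM in siOSBPL3 and 95.6, 94.5 and 90.9 CPM in siNC. Its groups overlapped, and it was not called at 0.08 ± 0.09 (adjusted p = 0.42).

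Genes of RIG-I-like receptor signalling, in which TRIM25 and several relatives act, were mostly higher as well. Of 15 tested, 10 were higher, 3 lower and 2 not called, with a median log2 fold change of 1.09. Over all genes tested 40.4% were higher and 39.8% lower. RNF135, known as Riplet and itself a RING ligase for RIG-I, had 27.0 ± 1.34 CPM (SD, n = 3) in siOSBPL3 and a single count over the siNC libraries. That is a ratio of 2580 with a 95% exact binomial counting interval from 463 to 101944. DHX58, a RIG-I-like regulator, averaged 23.7 CPM in siOSBPL3 and 0.379 CPM in siNC (log2 fold change 5.96 ± 0.22), and ZC3HAV1, a zinc-finger antiviral protein that works with TRIM25, 274 and 68.1 CPM (2.01 ± 0.08). MAVS, the adaptor on mitochondria, was lower, at 96.2 CPM in siOSBPL3 and 207 CPM in siNC. Of 10 interferon regulators 6 were higher, 3 lower and 1 was not called, beside the same shares over all genes, with a median of 0.42. USP18, which removes ISG15, averaged 44.5 CPM in siOSBPL3 and 4.24 CPM in siNC, whereas the kinase JAK1 averaged 56.1 CPM in siOSBPL3 and 238 CPM in siNC.

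Beyond the antiviral list, the other SPRY-type members added the largest rise of the family. This class holds members with a SPRY domain alone after a full tripartite motif. Members counted as COS box or RING-less are left out of it even where they carry a SPRY domain. In all 24 SPRY-type members were listed and 22 tested, of which 16 were higher, 2 lower and 4 not called, with a median log2 fold change of 0.75. With the GC and length correction 13 were higher and 4 lower, with a median of 0.48. The antiviral list accounts for 8 of the 16, and the other 14 tested members had 8 higher (57.1%), 2 lower (14.3%) and 4 not called, beside 40.4% higher and 39.8% lower over all genes. With the correction TRIM11, TRIM27, TRIM35, TRIM41 and TRIM58 of these 14 were still higher, and TRIM4, TRIM15, TRIM65 and TRIM68 were lower. Over all genes corrected 41.0% were higher and 37.1% lower, so the excess of rises among these 14 was seen only as counted. TRIM58, known for the removal of dynein in maturing red cells (chromosome 1, 247857187 to 247880138), had 7.97, 6.34 and 5.08 CPM in siOSBPL3 and no count in siNC. It was at least 205-fold higher against the floor of 3 counts over the siNC group (adjusted p = 9.3e-08, edgeR). TRIM58 and TRIM22 were the members with no count in siNC, and no member was without counts in siOSBPL3.

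TRIM41 (log2 fold change 1.27 ± 0.11), TRIM47 (1.04 ± 0.10), TRIM7, which binds glycogenin (1.03 ± 0.23), TRIM62 (0.90 ± 0.17) and TRIM11 (0.88 ± 0.09) were also higher. TRIM27, first known as a fusion partner of the kinase RET, had 89.1, 87.0 and 78.1 CPM in siOSBPL3 and 56.3, 55.6 and 57.1 CPM in siNC (0.59 ± 0.08, adjusted p = 2.7e-05). TRIM35 was higher by 0.41 ± 0.12. The 2 lower members of the class were TRIM68, a coactivator of the androgen receptor (-0.59 ± 0.15), and TRIM4, another RIG-I ligase (-0.42 ± 0.09). When each library was corrected for transcript GC content and length, TRIM47 became -0.08 (adjusted p = 0.34), TRIM7 0.35 (adjusted p = 0.16) and TRIM62 0.32 (adjusted p = 0.074), so that the 3 calls were lost, and TRIM41 stood at 0.61.

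**Figure D2:**
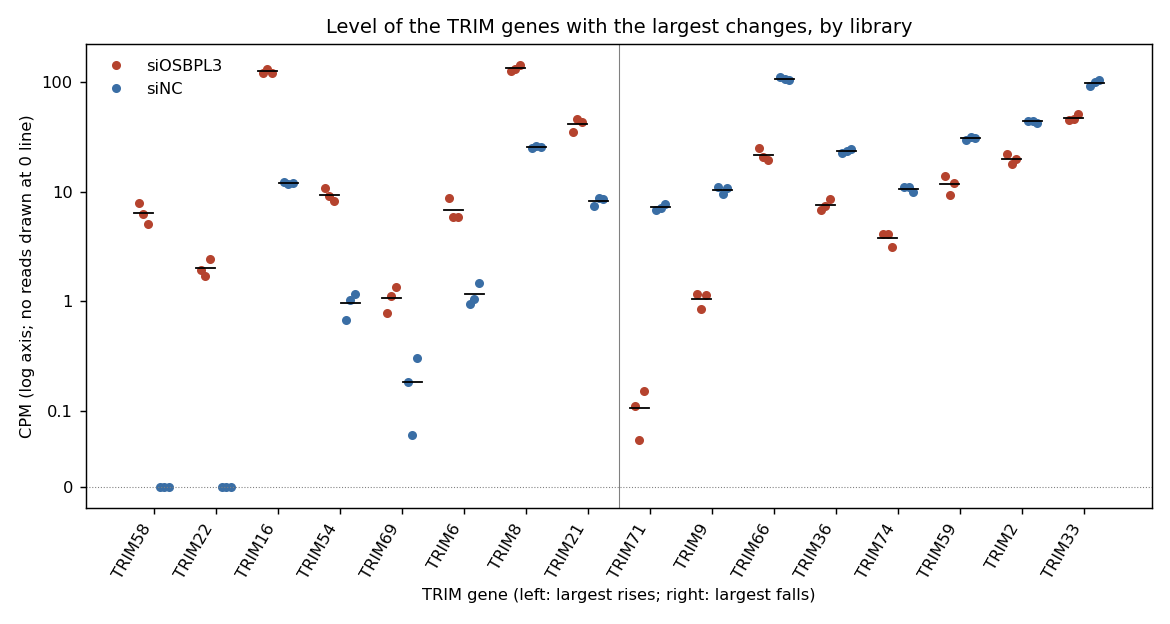
CPM in each library (log axis) of the 8 TRIM genes with the largest rises and the 8 with the largest falls, with siOSBPL3 left of siNC for each gene and a bar at the group mean, which is left out where a group had no reads. The genes were chosen among those whose groups did not overlap; TRIM58 and TRIM22 had no siNC reads.

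Of the 4 members counted as RING-less, 2 were higher and 2 lower, beside 40.4% and 39.8% of all genes tested. With the GC and length correction 3 were higher and 1 lower, beside 41.0% and 37.1% of all genes corrected. TRIM16, a RING-less protein of the response to damaged endomembranes and oxidative stress (chromosome 17, 15627966 to 15684311), had 123, 133 and 122 CPM in siOSBPL3, against 12.3, 11.9 and 12.0 CPM in siNC. It was 10.4-fold higher, at 3.38 ± 0.09 on the log2 scale (adjusted p = 1.5e-11, edgeR). GENCODE 29 finds 58.1% of the 75-base stretches of its longest transcript in other genes, among them its close copy TRIM16L, so its level is uncertain.

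TRIM8, a ligase that promotes NF-kB signalling (chromosome 10, 102644479 to 102658319), had 126, 133 and 144 CPM in siOSBPL3 and 25.2, 26.2 and 25.5 CPM in siNC. It was 5.25-fold higher (2.39 ± 0.09, adjusted p = 1.8e-10). Of the 6 tested members with no further domain 3 were higher, 1 was lower and 2 were not called, beside 40.4% higher and 39.8% lower over all genes. With the correction 4 were higher and 2 lower, beside 41.0% and 37.1% of all genes corrected. TRIM31, a ligase of MAVS and the inflammasome that shares its locus with an antisense gene, was higher by 1.15 ± 0.33 at 2.14 CPM in siOSBPL3 and 0.967 CPM in siNC. TRIM52 was higher by 0.33 ± 0.11 (adjusted p = 0.014), a call lost without siNC replicate 1 (adjusted p = 0.052) or replicate 3 (0.080). Its neighbour TRIM52-AS1 averaged 9.75 CPM in siOSBPL3 and 2.16 CPM in siNC, and without the strand setting reads of overlapping partners cannot be told apart.

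TRIM74 fell to 4.15, 4.13 and 3.11 CPM in siOSBPL3, against 11.0, 11.1 and 9.98 CPM in siNC (-1.50 ± 0.17, adjusted p = 5.4e-06, and -2.37 with the GC and length correction). It shares 88.2% of its 75-base stretches with other genes, chiefly TRIM73 and TRIM50, so its reads may be lost or split. TRIM73 itself had 0.415, 0.738 and 0.379 CPM in siOSBPL3 and 0.822, 0.602 and 0.809 CPM in siNC, was not called and is uncertain in the same way. Among the RING-less members, TRIM44, which carries a zinc finger of the deubiquitinase type, was lower at 131, 134 and 127 CPM in siOSBPL3 and 181, 185 and 179 CPM in siNC (-0.47 ± 0.08). With the GC and length correction it was higher instead (0.46, adjusted p = 6.1e-05). TRIM29, a RING-less protein of DNA damage and epithelial cells, was lower by 0.54 ± 0.11 on the log2 scale.

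Of the 4 chromatin and transcription cofactors, 1 was higher and 3 were lower, beside 40.4% and 39.8% of all genes tested. Their median log2 fold change was -0.80. With the GC and length correction 1 was higher and 1 lower, beside 41.0% and 37.1% of all genes corrected. TRIM28, or KAP1, the corepressor that KRAB zinc-finger proteins recruit (chromosome 19, 58544064 to 58550715), had 432, 518 and 472 CPM in siOSBPL3 and 166, 164 and 169 CPM in siNC. It was 2.85-fold higher (1.51 ± 0.09, adjusted p = 1.2e-08), and made up 22.3% of all TRIM-family CPM in siOSBPL3 and 10.5% in siNC. With the GC and length correction its log2 fold change was 0.61 (adjusted p = 4.8e-05). The GC content of its longest transcript was 63.7%.

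TRIM66, a germ-cell-enriched relative that binds heterochromatin protein (chromosome 11, 8612040 to 8683231), fell to 25.1, 20.7 and 19.5 CPM in siOSBPL3, against 111, 108 and 105 CPM in siNC (-2.31 ± 0.10, adjusted p = 1.1e-09). TRIM33, which binds SMAD proteins in TGF-beta signalling, had 45.5, 46.2 and 51.1 CPM in siOSBPL3 and 93.1, 100 and 105 CPM in siNC (-1.06 ± 0.09, adjusted p = 2.1e-07). TRIM24, a nuclear receptor cofactor and ligase of p53, had 32.7, 43.1 and 47.1 CPM in siOSBPL3 and 60.4, 58.7 and 59.3 CPM in siNC (-0.54 ± 0.12, adjusted p = 0.0013). The groups of all 4 genes were apart, but the calls of TRIM33 and TRIM24 were lost with the GC and length correction, at -0.10 (adjusted p = 0.20) and 0.23 (adjusted p = 0.058).

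Of 13 partners of TRIM28 in silencing, 9 were lower, none higher and 4 not called, with a median log2 fold change of -0.42. The shares over all genes tested were 39.8% lower and 40.4% higher. With the GC and length correction 5 of 12 were lower and 2 higher, beside 37.1% and 41.0% of all genes corrected. ATF7IP, which stabilises the histone methyltransferase SETDB1, averaged 25.7 CPM in siOSBPL3 and 140 CPM in siNC (-2.44 ± 0.08, and -1.53 with the correction). The heterochromatin protein genes CBX3 and CBX5 averaged 153 and 128 CPM in siOSBPL3, against 343 and 271 CPM in siNC, and with the correction stood at -0.71 and -0.14 on the log2 scale.

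The largest fall among the tested members was in the NHL-repeat class, where 2 of 4 were lower, 1 higher and 1 not called. Of all genes tested 39.8% were lower and 40.4% higher. With the GC and length correction 3 of the class were lower and 1 higher, beside 37.1% and 41.0% of all genes corrected. TRIM71, an RNA-binding regulator of embryonic stem cells and a classic target of the let-7 microRNA (chromosome 3, 32817997 to 32897824), had 0.111, 0.0547 and 0.152 CPM in siOSBPL3, which are 12 counts in all, against 6.88, 7.14 and 7.75 CPM in siNC. Its log2 fold change was -6.04 ± 0.33 (adjusted p = 7.3e-09, edgeR), and -5.58 with the GC and length correction. TRIM2, a ligase of neurofilaments, had 22.1, 17.8 and 20.1 CPM in siOSBPL3 and 44.6, 44.8 and 42.8 CPM in siNC (-1.14 ± 0.10), which the correction brought to -0.35. TRIM32, a muscle-disease gene, was higher by 0.38 ± 0.11. TRIM3 had 5.20, 9.35 and 6.60 CPM in siOSBPL3 and 7.61, 7.80 and 7.68 CPM in siNC, overlapped and was not called.

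Members with a COS box, most of them known from neurons and muscle, were lower in 3 of the 4 tested and higher in 1, with a median log2 fold change of -1.63. Over all genes tested 39.8% were lower and 40.4% higher. TRIM9, a neuronal ligase of axon branching, fell to 1.16, 0.847 and 1.14 CPM in siOSBPL3, against 11.0, 9.52 and 10.9 CPM in siNC (-3.31 ± 0.21, adjusted p = 2.1e-08). TRIM36 had 6.81, 7.41 and 8.69 CPM in siOSBPL3 and 22.8, 23.9 and 24.4 CPM in siNC (-1.63 ± 0.13, and -0.96 with the correction). TRIM54, a MURF protein of the sarcomere that binds microtubules, went the other way, with 10.8, 9.10 and 8.21 CPM in siOSBPL3 and 0.669, 1.02 and 1.18 CPM in siNC (3.29 ± 0.24, adjusted p = 1.0e-07, and 2.56 with the correction). TRIM46, which orders microtubules at the start of the axon, was scarce, at 0.247 CPM in siOSBPL3 and 0.777 CPM in siNC, and its call (-1.63 ± 0.50, adjusted p = 0.010) was lost without siNC replicate 2 (adjusted p = 0.078). With the correction TRIM46 stood at -2.43. The muscle genes TRIM55 and TRIM63 reached at most 0.109 and 0.137 CPM in siOSBPL3, and 0.0301 and 0.270 CPM in siNC, and were not tested.

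MID1 and MID2, COS-box relatives under other symbols, moved apart as well. MID1, the gene of Opitz syndrome, averaged 16.0 ± 3.65 CPM in siOSBPL3 and 133 ± 3.90 CPM in siNC (SD, n = 3 each; log2 fold change -3.05 ± 0.14), and MID2 averaged 9.79 ± 0.747 CPM in siOSBPL3 and 1.07 ± 0.242 CPM in siNC (3.19 ± 0.22). RNF207 was higher by 1.33 ± 0.18. Of 5 tested relatives under other symbols 3 were higher, PML among them, and 2 lower, beside 40.4% and 39.8% of all genes tested.

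Of the 5 tested members with another domain at the end, 2 were higher, 2 lower and 1 was not called. Of all genes tested 40.4% were higher and 39.8% lower. The median log2 fold change of these members was -0.10. With the GC and length correction 4 were higher and 1 lower, with a median of 0.77, beside 41.0% and 37.1% of all genes corrected. TRIM59, a membrane-anchored member, had 14.0, 9.46 and 12.0 CPM in siOSBPL3 and 29.7, 31.7 and 31.0 CPM in siNC (-1.38 ± 0.14, and -0.38 with the correction). Of its exon bases 22.1% overlap SMC4 on the other strand, so reads of either gene may be counted for the other where strand was not used. TRIM37, a gene of centriole and peroxisome biology, was higher by 0.52 ± 0.09, and TRIM45 by 0.98 ± 0.20. TRIM23, which carries an ARF domain, was lower by 0.31 ± 0.12 on the log2 scale (adjusted p = 0.038). That call was lost with library totals, with the stricter threshold of 0.01 and without any single library other than siOSBPL3 replicate 3, and with the correction TRIM23 was higher (0.48, adjusted p = 0.0015).

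Besides TRIM56, TRIM73 and TRIM3, another 5 members were not called. TRIM10 (5.31, 4.62 and 3.36 CPM in siOSBPL3, 5.78, 5.90 and 5.43 CPM in siNC), TRIM39 (11.3, 12.8 and 11.2 CPM, against 10.6, 9.21 and 8.80 CPM in siNC) and TRIM65 (35.3, 37.1 and 37.9 CPM, against 34.5, 33.4 and 34.5 CPM in siNC) did not overlap between groups but had differences under 0.4 on the log2 scale. TRIM13, an endoplasmic reticulum member, had 39.8, 39.7 and 48.0 CPM in siOSBPL3 and 47.3, 46.0 and 43.5 CPM in siNC, and was called lower without siOSBPL3 replicate 3 (-0.19, adjusted p = 0.045). TRIM15 had 27.8, 20.6 and 19.0 CPM in siOSBPL3 and 25.9, 25.1 and 24.9 CPM in siNC, and siOSBPL3 replicate 1 was the high one. Without that replicate TRIM15 (-0.35, adjusted p = 0.0040), TRIM10 (-0.51, adjusted p = 0.024) and TRIM39 (0.33, adjusted p = 0.035) passed the threshold.

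The 5 members too low to test were TRIM40, TRIM50, TRIM55, TRIM63 and TRIM72. TRIM40 had 0.526, 0.683 and 0.177 CPM in siOSBPL3 and 0.122, 0.181 and 0 CPM in siNC. TRIM72, a membrane repair protein of muscle, had 21 counts over siOSBPL3 and 1 count over siNC, which is a ratio of 17.9 (95% exact interval of the counts 2.88 to 740). TRIM50 had 2 counts over siOSBPL3 and 2 over siNC.

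**Figure D3:**
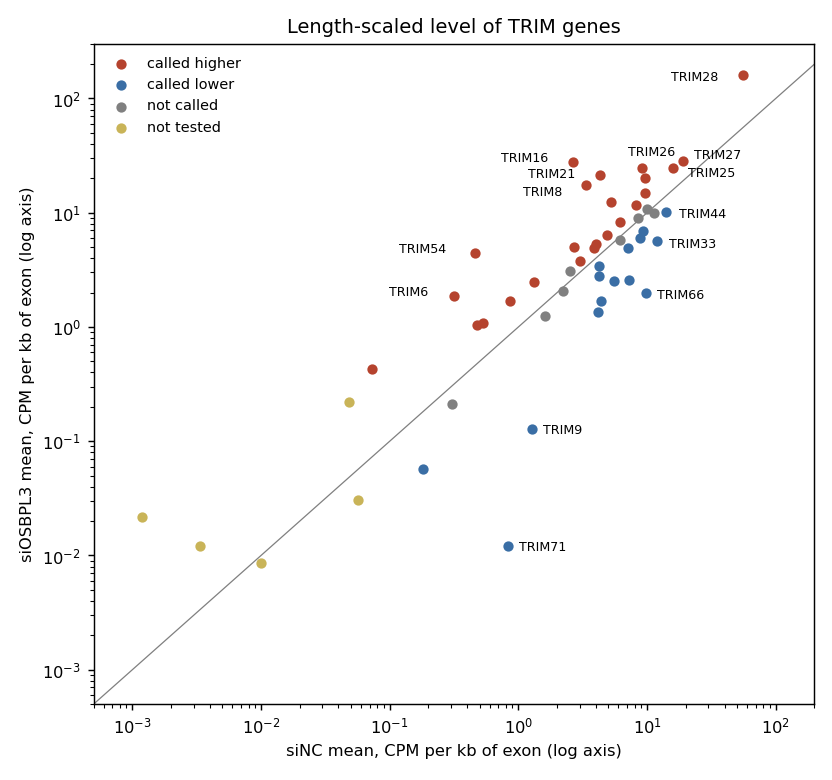
Mean level per kilobase of exon in siOSBPL3 (vertical, log axis) against siNC (horizontal, log axis) of the 52 TRIM genes with reads in both groups; the line marks equal levels. TRIM28 stood highest in both groups, at 160 CPM per kb in siOSBPL3 and 56.1 in siNC, and TRIM71 and TRIM9 lay farthest below the line.

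Scaled by exon length, TRIM28 was the most abundant member in both groups. In siOSBPL3 it stood at 160 CPM per kb, followed by TRIM27 (28.6), TRIM16 (27.8), TRIM25 (24.6) and TRIM26 (24.5). In siNC it stood at 56.1 CPM per kb, followed by TRIM27 (19.0), TRIM25 (16.0), TRIM44 (14.0) and TRIM33 (11.9). A mean of at least 10 CPM was reached by 31 members in siOSBPL3 and 33 in siNC, and 8 members in siOSBPL3 and 12 in siNC were under 1 CPM. Among the 29 tested members with at least 10 CPM in both groups, the coefficient of variation had a median of 7.12% in siOSBPL3 and 2.91% in siNC, and the highest in siOSBPL3 was 21.0%, in TRIM15. Of the 41 called members, siOSBPL3 replicate 1, which kept the most OSBPL3, lay nearest to the siNC mean in 15 (36.6%), beside 40.6% of all called genes whose groups did not overlap. Replicate 3 lay nearest in 17 (41.5%), beside 35.8%, and replicate 2 in the remaining 9.

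Many TRIM genes lie in clusters, and neighbours on chromosomes 11 and 6 differed in their calls. On chromosome 11, between 4384897 and 6474459, TRIM21, TRIM68, TRIM5, TRIM6, TRIM22 and TRIM3 each lie less than 1 Mb from the next. TRIM22 and TRIM6 were among the largest rises of the family, TRIM5, whose span holds TRIM6, was higher by 0.42 on the log2 scale, TRIM68 was lower and TRIM3 was not called. On chromosome 6, between 30102897 and 30343729, TRIM31 and TRIM26 were higher, TRIM10, TRIM15 and TRIM39 were not called and TRIM40 was too low to test. On chromosome 5, TRIM7, TRIM41 and TRIM52, which lie between 181193924 and 181261143, were all higher, although TRIM7 was no longer called after the GC and length correction.

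**Figure D4:**
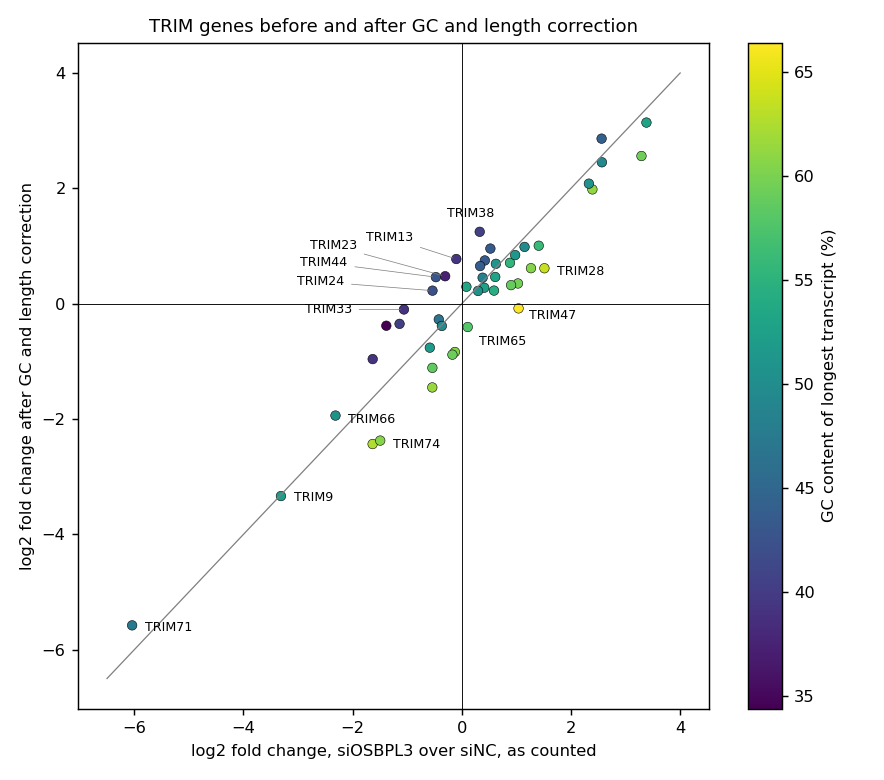
Log2 fold change (siOSBPL3 over siNC) of 47 tested TRIM genes as counted (horizontal) and after the correction for transcript GC content and length (vertical), coloured by the GC content of the longest transcript in percent; TRIM22 and TRIM58, with no siNC reads, are left out. Points off the diagonal moved, genes of low GC content mostly upward and those of high GC content mostly downward, and TRIM71, TRIM9 and TRIM66 kept their large falls.

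Base composition and transcript length moved with these results. The GC content of the longest transcript ran from 34.4% (TRIM59) to 66.4% (TRIM47) over the 49 members, and the log2 fold change had a Spearman correlation with it of 0.22 across the members and of 0.39 across the 13818 genes tested that had a value. With transcript length it had a Spearman correlation of -0.37 across the members. These genes share the same 6 libraries, so the correlations are descriptions. With a smooth correction per library for GC content and length, 27 members were higher and 15 lower, beside 41.0% and 37.1% of all genes corrected. The correction takes each library's trend against the mean of all 6 libraries. A difference between the groups that follows GC content or length is removed with it, whatever its source. That source was not tested. Of the 41 calls, 34 were kept in the same direction, TRIM23 and TRIM44 were called in the other, and TRIM7, TRIM24, TRIM33, TRIM47 and TRIM62 were lost. Called with the correction alone were TRIM13 (0.77) and TRIM56 as higher, and TRIM3 (-0.84), TRIM15 (-0.88), TRIM65 (-0.41) and TRIM73 (-1.45) as lower. Of the 23 called members with a change of at least 2-fold, 14 kept such a change: TRIM6, TRIM8, TRIM16, TRIM21, TRIM22, TRIM26, TRIM54, TRIM58 and TRIM69 higher, and TRIM9, TRIM46, TRIM66, TRIM71 and TRIM74 lower. The interferon-inducible list had 10 of 10 members higher after the correction, with a median of 1.13, TRIM56 included (0.29, adjusted p = 0.0084).

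The E2 enzymes that TRIM ligases use moved in both directions. Of 14 tested, 5 were higher, 6 lower and 3 not called, with a median log2 fold change of -0.17, beside 40.4% higher and 39.8% lower over all genes. With the GC and length correction 10 were higher and 3 lower, beside 41.0% and 37.1% of all genes corrected. UBE2L6, the interferon-induced E2 that loads ISG15, averaged 42.9 ± 4.94 CPM in siOSBPL3 and 4.43 ± 0.358 CPM in siNC (SD, n = 3 each; 3.28 ± 0.13). UBE2D4 was higher by 2.16 ± 0.13 and UBE2D3 by 1.17 ± 0.11.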

How the data were processed

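The authors deposited raw read counts per gene symbol for 6 libraries; the values are not normalized. HISAT2 2.2.1, HTSeq 0.13.5 and the GRCh38 (hg38) build are named in the submitters' processing notes. The sources used here give neither the annotation nor the strand setting. Groups came from sample titles, and columns were matched by library name.

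Genes were kept by filterByExpr (minimum count 10, minimum total 15), scaled by TMM and tested on all genes with the robust quasi-likelihood test of edgeR 4.0.16 in R 4.3.3 with group as the only term. The test was two-sided, p-values were adjusted over 15506 genes by Benjamini-Hochberg, and calls used 0.05. Fold changes divide siOSBPL3 by siNC. A check of the test on simulated counts changed only a small share of the genes. Most genes differed in these libraries, so that check does not speak for the calls here.

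Transcript GC content, lengths and shared 75-base stretches came from GENCODE 29, positions and promoters from RefSeq on GRCh38.p14. Stretches found in other genes also made up 33.9% of TRIM39, 32% of TRIM47 and 17.7% of TRIM8, so their levels carry the same uncertainty. Alternatives were DESeq2 1.42.0, limma-voom (3.58.1), the omission of each library, RLE factors, scaling by library totals, a cutoff of 0.01, testing unfiltered genes, testing genes that averaged at least 5 CPM, the replicate number as a block, and a per-library smooth correction for GC content and length (mgcv 1.9.3).

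The members, lists and alternatives were chosen with earlier results of these data known. Named members were the 8 largest called rises and 8 largest falls whose groups did not overlap (at least 1 CPM in the higher group), both role lists, the 5 highest levels per group and all not called, and up to 3 genes with the smallest adjusted p of each other list. Other genes named were chosen after their values were seen. Counting intervals and floors (3 counts over a group) cover counting error only.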

Additional observations from a re-analysis of the deposited data

How the results depend on the processing

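The counts of TRIM members called, 26 higher and 15 lower, stayed within 1.5 times of these values under each of the 15 alternatives, as did the counts over all genes. Leaving out each library in turn gave 39 to 43 members called, 25 to 27 higher and 13 to 16 lower, and 11814 to 13034 genes over the whole table. Of the 49 members tested, 42 kept their direction under every alternative in which they were tested and 32 also kept their side of the threshold. With the correction for GC content and length TRIM13 (0.77), TRIM23 (0.48), TRIM24 (0.23), TRIM44 (0.46), TRIM47 (-0.0817) and TRIM65 (-0.41) changed sign, and without siOSBPL3 replicate 1 so did TRIM3 (0.0546, not called, and -0.378 without replicate 2). The cause was not tested. DESeq2, limma-voom, RLE factors and no filter changed no call of a member. The mean of at least 5 CPM left 40 members in the test.

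With the replicate number as a block, 41 members and 12277 genes were called, and no call of a member changed. The numbers did not pair the libraries: deviations of libraries with the same number correlated at -0.014, -0.0043 and -0.027. Members under about 1 CPM, such as TRIM46 and TRIM69, rest on few reads.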
